A study of Homo sapiens with 12 samples.

Results

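A set of 199 genes was expressed in R1 cells and stood at 0.25 of that level or less in the HEK293T cells from which R1 was derived. They were chosen by their scaled counts (CPM, a gene's count divided by the summed count of its library, times 1000000). A gene was taken when its mean over 5 R1 libraries was at least 5 CPM and when the mean of the HEK293T libraries was at most 0.25 of the R1 mean in each medium. Genes with symbols starting SLC or MAGE, histone genes and entries with no symbol were excluded, and one entry was kept per symbol, which left 199 of the 23500 genes listed. The same rule turned around, for genes of HEK293T that were low in R1, gave 18 genes. With the TMM scaling described below the rule and its mirror gave 134 and 25 genes, and with a trend in GC content and length removed as well 102 and 25. Since the difference between R1 and HEK293T chose the genes, its values below are a description, with no test.

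RNA was sequenced from 12 libraries in 4 groups of 3, after 12 h in one of the media. HEK293T is an established human embryonic kidney line that carries the SV40 large T antigen, and its cells do not proliferate when methionine is replaced by its precursor homocysteine. R1 (293Tres-R1 in full) is a methionine-independent derivative of HEK293T, represented here by 1 clone, so that a property of the clone and a property of methionine independence cannot be told apart. The +Met medium holds methionine, the −Met+Hcy medium holds homocysteine in its place, and neither line carries any other treatment or introduced allele named in the labels. The labels give R1 in the sample title and HEK293T as the cell line of those libraries, and they do not say that the 3 libraries of a group came from separate cultures. P-values therefore measure the spread between these libraries.

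Genes that differ between a clone and its parent often belong to programmes of cell identity, which are set by transcription factors and by chromatin and are passed on through divisions. The extracellular matrix is a mesh of collagens, laminins and proteoglycans laid down outside the cell, and laminins and collagens also act as ligands of integrins. Retinoic acid is made from vitamin A by dehydrogenases, is carried to the nucleus by a binding protein, acts through nuclear receptors on embryonic patterning, and is cleared by cytochromes of the CYP26 family. Interferon-stimulated genes encode sensors and effectors against viruses, and many carry an element in their promoters that is bound by interferon regulatory factors and STAT complexes. HEK293 cells are known for a mixture of neuronal, renal and adrenal transcripts.

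One library stood apart. In replicate 3 of R1 −Met+Hcy the 199 genes took 0.4598% of all counts, where the remaining R1 libraries gave them 0.677 to 0.819% and HEK293T gave 0.0812 to 0.112%. The rule left that library out. It is described at the end, and the medium comparisons are given with it and without it. Ranges for R1 and statements of overlap with HEK293T, here and below, use the 5 other R1 libraries unless replicate 3 is named. Library totals were 14260534 to 17019716 counts in HEK293T and 12664158 to 18771349 in R1. Markers of other cells were checked. Of 12 mammary epithelial markers 5 were measured, with a summed level of 4.01 to 9.61 CPM in HEK293T and 11.3 to 22.7 in the 5 R1 libraries. Of these, ESRP1 was at 0 in every R1 library and ELF3 was at or under 0.174 CPM in all 12. Others of the list were higher in R1: EGFR had 2.57 to 5.68 CPM in HEK293T and 8.203 to 19.1 CPM in R1, and EPCAM had 0.245 to 0.561 CPM in HEK293T and 0.659 to 3.57 CPM in R1 with 6.55 in R1 −Met+Hcy replicate 3, both without overlap, and CDH1 had 0.188 to 3.02 CPM in HEK293T and 1.41 to 4.41 CPM in R1, with overlap. The 5 haematopoietic and fibroblast markers summed to 5.51 to 12.96 CPM in HEK293T and 3.89 to 10.9 in R1. All 6 of the measured mesenchymal markers and 7 of 8 neural and nephric markers of HEK293 had counts in both lines. Their sums were 647 to 1059.9 and 177 to 269 CPM in R1, against 654 to 867 and 131 to 297 in HEK293T. Single markers went both ways. SNAI2 had 77.6 to 263 CPM in HEK293T and 9.92 to 24.5 in R1, and NEFM and SOX4 were also lower in R1 without overlap. FN1, COL1A1, CDH2, INA, LHX1 and PAX2 were higher in R1 without overlap. LHX1 and PAX2 reached only 0.771 and 1.33 CPM in HEK293T. The part of such markers in the differences was not tested.

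**Figure D1:**
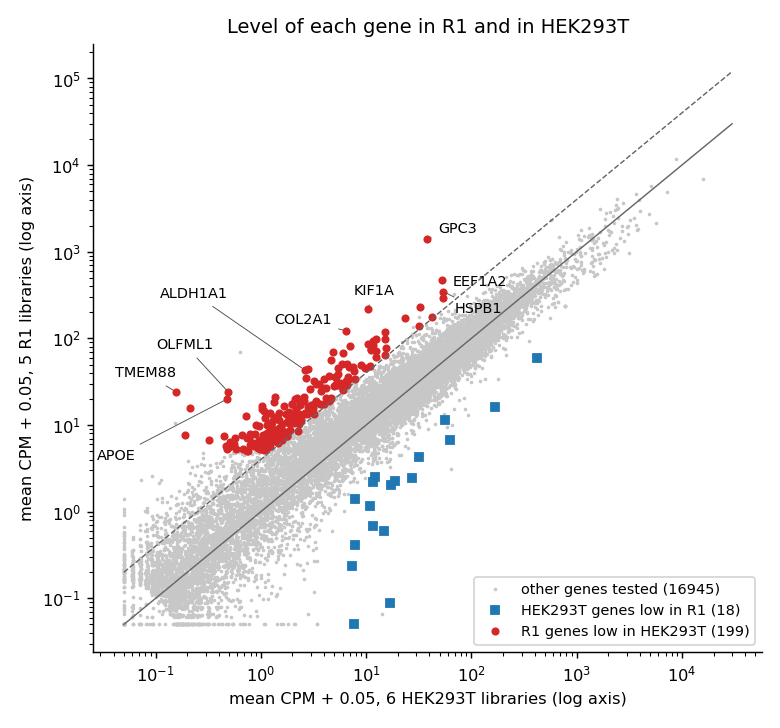
Mean CPM plus 0.05 of each gene tested in the 6 HEK293T libraries (horizontal, log axis) and in 5 R1 libraries without −Met+Hcy replicate 3 (vertical, log axis). The 199 R1 genes (red) lie near or above the dashed line of a 4-fold difference, the 18 genes of the mirrored rule are blue squares, all other genes are grey, and the solid line marks equal levels.

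The mean level of the 199 genes in R1 ran from 5.02 to 1422 CPM, with a median of 13.7, and their median in HEK293T was 1.94 CPM. Most were low: 128 had over 10 CPM in R1, 28 over 50 and 11 over 100. The median R1 to HEK293T ratio was 7.53 in +Met and 6.296 in −Met+Hcy, and over both media 38 genes had a ratio of at least 10 and 8 of at least 20. In all 199 the 5 R1 libraries lay above the 6 HEK293T libraries, a pattern that 17.5% of all 17162 genes tested showed, and the rule itself favours it. HEK293T was not silent for them: 174 genes had more than 3 counts in each of its libraries, and TMEM88 alone had 3 or fewer in every one. In bulk RNA, fewer cells that express a gene and less of its RNA per cell cannot be told apart.

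Near the limits of the rule the genes shaded into their neighbours. The lowest R1 means inside were those of ARHGAP27 (5.02 CPM), OLFML2B (5.03) and PSD4 (5.17), and the highest of genes that met the ratio but not the level were GP1BB (4.996), PPP1R1A (4.99) and ERICH5 (4.95). The smallest ratios inside were 4.0005 for RENBP, 4.002 for RNF208 and 4.01 for ADGRA2. Just outside were KIF5C (3.997), JUP (3.997) and FADS2 (3.99). Scaling mattered to membership. The trimmed mean of M-values (TMM), which scales libraries on the genes common to them, lowered the R1 to HEK293T log2 ratio of every gene by 0.35 in +Met and 0.10 in −Met+Hcy, and 134 of the 199 then still met the rule. When the trend of each library with transcript GC content and length was removed as well, a step added with the data already seen, 99 did.

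Genes of the extracellular matrix and its processing were the largest group with a shared role, with 26 of the 199, sorted by hand with the members known, and their median ratios were 8.49 in +Met and 6.82 in −Met+Hcy. GPC3, glypican-3, a heparan sulphate proteoglycan anchored at the cell surface (chrX:133535745-133987100, GRCh38), was the most abundant of all 199 per length of transcript, at 627 CPM per kb in R1. It stood at 28.1, 21.03 and 26.5 CPM in the HEK293T +Met libraries, 52.9, 53.5 and 47.1 in HEK293T −Met+Hcy, 1303, 1462 and 1209 in R1 +Met and 1611, 1523 and 1359 in R1 −Met+Hcy. Every R1 library, replicate 3 included, held more than 20 times the level of any HEK293T library. The ratio of means was 52.6-fold in +Met and 30.6-fold in −Met+Hcy.

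Laminins, the trimers that form the net of basement membranes, gave 3 members. LAMB2, the beta-2 chain, had 43.6, 47.7 and 32.4 CPM (HEK293T +Met), 61.2, 37.5 and 30.7 CPM (HEK293T −Met+Hcy), 183, 132 and 186 CPM (R1 +Met) and 170.2, 212 and 70.96 CPM (R1 −Met+Hcy) in replicates 1 to 3. LAMA5, the alpha-5 chain, had 29.98, 33.2 and 26.1 CPM (HEK293T +Met), 26.02, 14.4 and 11.1 CPM (HEK293T −Met+Hcy), 215, 112 and 184 CPM (R1 +Met) and 152, 192 and 7.78 CPM (R1 −Met+Hcy) in replicates 1 to 3. LAMA4, the alpha-4 chain, ranged 3.29 to 11.3 CPM in HEK293T and 21.2 to 51.2 CPM in R1. In replicate 3 of R1 −Met+Hcy these stood at 70.96, 7.78 and 39.5 CPM, so that LAMA5 alone of them was below every HEK293T library there. With TMM scaling LAMA5 still met the rule, and LAMB2 and LAMA4 did not. With the GC and length trend removed as well, LAMA5 did not meet it either. Among the collagens, COL2A1, the chain of the fibrils of cartilage (chr12:47972967-48004554), had 7.26, 4.86 and 4.96 CPM (HEK293T +Met), 10.03, 6.58 and 4.74 CPM (HEK293T −Met+Hcy), 168, 84.3 and 144 CPM (R1 +Met) and 79.6, 136 and 27.2 CPM (R1 −Met+Hcy) in replicates 1 to 3. Its R1 +Met mean was 132 ± 42.98 CPM (SD, n = 3) against 5.69 ± 1.36 in HEK293T. The type V chains COL5A1 and COL5A2, which set the width of collagen fibrils, had 2.96 to 6.302 CPM in HEK293T and 16.4 to 38.1 CPM in R1, and 1.13 to 9.19 CPM in HEK293T and 23.1 to 49.2 CPM in R1.

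Factors that process or bind collagen were also members. PCOLCE, which speeds the trimming of procollagen, had 4.41 to 7.01 CPM in HEK293T and 63.1 to 71.9 CPM in R1. MRC2, an endocytic receptor for collagen, had 8.36 to 19.5 CPM in HEK293T and 99.7 to 135 CPM in R1, and PXDN, the peroxidase that crosslinks the collagen of basement membranes, had 7.76 to 14.9 CPM in HEK293T and 52.5 to 95.9 CPM in R1. LOXL1, an enzyme that crosslinks elastin, had 1.096 to 3.16 CPM in HEK293T and 17.4 to 23.2 CPM in R1. FBN1, the core of microfibrils, had 2.69 to 9.54 CPM in HEK293T and 15.2 to 38.2 CPM in R1, and the gelatinase MMP2 had 1.16 to 2.35 CPM in HEK293T and 10.4 to 16.01 CPM in R1. OLFML1, a secreted olfactomedin-like protein, was among the most unequal of the set: it stood at 0.188, 0.0685 and 0.184 CPM in the HEK293T +Met libraries, 0.491, 0.999 and 0.724 in HEK293T −Met+Hcy, 18.03, 21.3 and 25.9 in R1 +Met and 27.6, 27.1 and 37.02 in R1 −Met+Hcy. With at most 3 counts in each HEK293T +Met library its R1 level in that medium was at least 113-fold higher, taking 3 counts per library as the floor, and its ratio in −Met+Hcy was 37.02-fold. SRGN, the core protein of a granule proteoglycan, was uneven between libraries of one group, with 11.9, 25.6 and 8.53 CPM in R1 +Met. On the list of 122 measured matrix genes drawn up from family names, 10 were members (8.20%) and 53 reached 5 CPM in R1. Of those 53, 31 had at least 2 times the HEK293T mean and 1 had 0.5 of it or less.

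**Figure D2:**
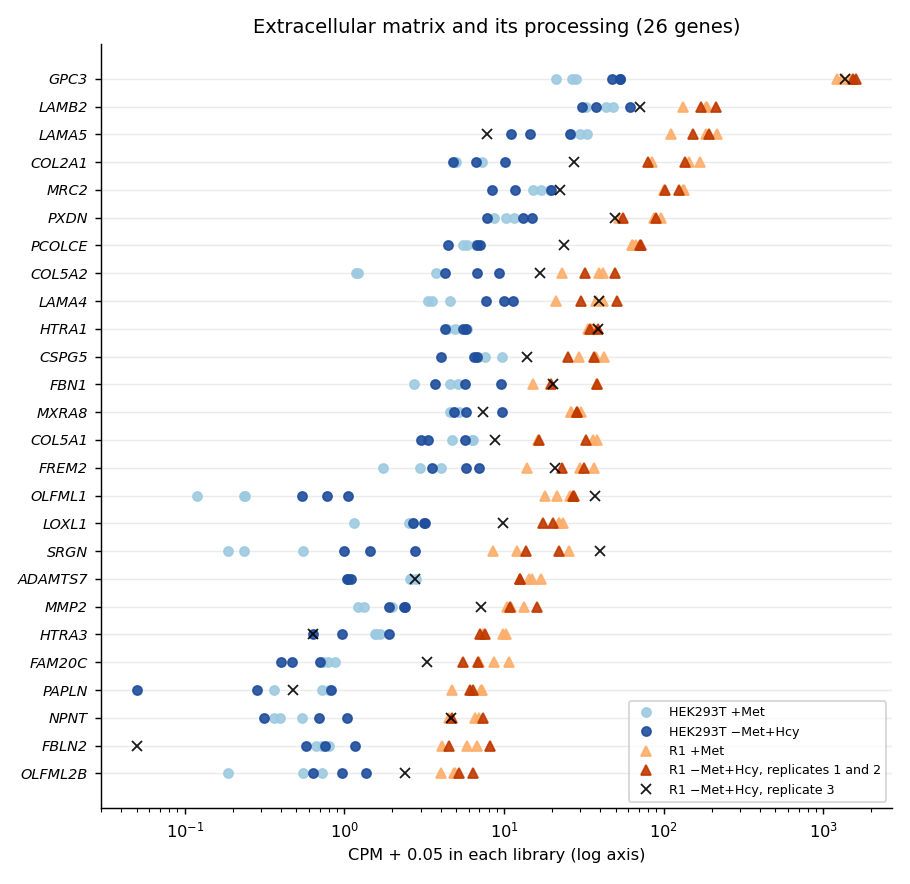
CPM plus 0.05 of the 26 matrix genes (log axis) in each of the 12 libraries, HEK293T as circles, R1 as triangles and R1 −Met+Hcy replicate 3 as a cross. The circles and triangles do not overlap for any gene, whereas the cross of LAMA5, at 7.78 CPM, lies left of its circles and that of OLFML1, at 37.02 CPM, right of its triangles.

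Retinoid metabolism gave 5 members, which cover synthesis, transport and removal of retinoic acid. ALDH1A2, the dehydrogenase that makes retinoic acid in the embryo (chr15:57953424-58497866), stood at 38.3, 36.4 and 33.8 CPM in the HEK293T +Met libraries, 25.8, 25.97 and 30.5 in HEK293T −Met+Hcy, 147, 138 and 150.3 in R1 +Met and 118, 140.02 and 99.4 in R1 −Met+Hcy. It was the member with the smallest ratio here, at 4.01-fold in +Met and 4.71-fold in −Met+Hcy. ALDH1A1, another retinal dehydrogenase (chr9:72900671-73080442), stood at 0.688, 1.85 and 0.918 CPM in the HEK293T +Met libraries, 4.07, 4.41 and 3.42 in HEK293T −Met+Hcy, 36.2, 39.7 and 40.4 in R1 +Met and 52.3, 47.9 and 42.4 in R1 −Met+Hcy. All 6 R1 libraries were at 36.2 CPM or above and none of HEK293T passed 4.41, and within HEK293T the −Met+Hcy libraries were all above the +Met ones. CRABP2, which carries retinoic acid to its receptors (chr1:156699606-156705816), had 10.3, 10.001 and 11.4 CPM (HEK293T +Met), 9.05, 10.9 and 10.6 CPM (HEK293T −Met+Hcy), 83.5, 115 and 61.7 CPM (R1 +Met) and 101, 69.7 and 69.5 CPM (R1 −Met+Hcy) in replicates 1 to 3. Replicate 3 of R1 −Met+Hcy lay within the range of the other R1 libraries for ALDH1A1 and for CRABP2. DHRS3, which turns retinal back to retinol, had 1.33 to 3.16 CPM in HEK293T and 15.3 to 23.96 CPM in R1, and CYP26B1, which degrades retinoic acid, had 1.38 to 2.45 CPM in HEK293T and 5.21 to 9.48 CPM in R1 with 1.07 in R1 −Met+Hcy replicate 3. Per length, CRABP2 stood highest of the 5 in R1 at 88.4 CPM per kb, then ALDH1A2 at 40.99 and ALDH1A1 at 20.7.

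The other 13 measured genes of a list of 18 for this pathway, chosen after the members were seen, did not meet the rule. Of the 6 retinoid receptors measured, all overlapped between the lines over both media. RARA had 18.7 to 30.7 CPM in HEK293T and 18.5 to 25.9 CPM in R1, RARB 17.1 to 25.1 CPM in HEK293T and 14.2 to 25.04 CPM in R1 and RXRA 9.67 to 18.7 CPM in HEK293T and 15.2 to 29.3 CPM in R1. RARG had 8.198 to 15.04 CPM in HEK293T and 13.3 to 21.1 CPM in R1, and in +Met its R1 libraries (21.1, 13.3 and 20.1 CPM) lay above those of HEK293T (8.198, 9.18 and 8.94). RXRG likewise had 6.96, 7.93 and 4.97 CPM in R1 +Met against 3.69, 2.67 and 2.63 in HEK293T +Met, whereas in −Met+Hcy HEK293T had 12.6, 10.8 and 9.87. RXRB had 13.2 to 28.8 CPM in HEK293T and 10.8 to 17.6 CPM in R1. In R1 −Met+Hcy replicate 3 RARA, RARG, RXRA and RXRB stood below every HEK293T library, at 6.39, 1.97, 2.13 and 5.22 CPM. RARB and RXRG had 25.8 and 8.42 CPM there. RDH10, which makes retinal from retinol, had 23.9 to 41.1 CPM in HEK293T and 29.1 to 31.6 CPM in R1. CYP26A1, the other degrading cytochrome measured, was not higher in R1, with 17.3 to 33.95 CPM in HEK293T and 13.2 to 23.8 CPM in R1. With TMM scaling ALDH1A1, CRABP2 and DHRS3 still met the rule, and ALDH1A2 and CYP26B1 did not.

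**Figure D3:**
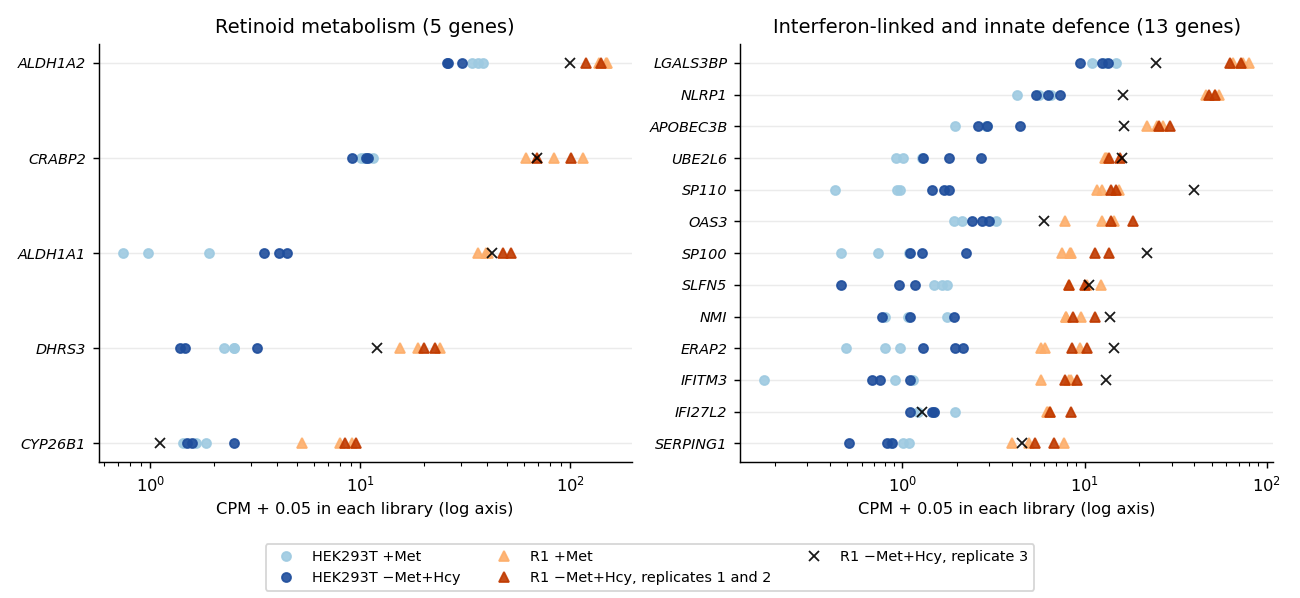
CPM plus 0.05 of the 5 retinoid genes (left) and of the 13 interferon-linked and defence genes (right) in each of the 12 libraries on a log axis, with HEK293T as circles, R1 as triangles and R1 −Met+Hcy replicate 3 as a cross. ALDH1A1 shows the −Met+Hcy circles right of the +Met ones, and the crosses of SP110 (40.01 CPM) and SP100 (21.8 CPM) lie right of the R1 triangles.

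Genes linked to interferon and innate defence numbered 13, with median ratios of 9.37 in +Met and 8.18 in −Met+Hcy. Promoters of some are shown because they hold a motif, a feature that the rule did not use. Of the 13, 9 have a promoter in the RefSeq table (GRCh38.p14, 250 bases before to 50 after the start of transcription), and 5 of the 9 hold GAAANNGAAA, the core letters of the interferon-stimulated response element, on either strand. Below are the 250 bases before the start for those 5, 5′ to 3′ on the strand of the gene, with each match in capitals (TTTCNNTTTC where it lies on the other strand).
IFITM3, chr11:320861-321110, minus strand: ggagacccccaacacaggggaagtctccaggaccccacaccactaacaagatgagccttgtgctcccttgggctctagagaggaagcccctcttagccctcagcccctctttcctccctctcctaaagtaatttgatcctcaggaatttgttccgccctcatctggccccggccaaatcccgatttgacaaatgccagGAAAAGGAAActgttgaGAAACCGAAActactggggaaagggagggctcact
OAS3, chr12:112938224-112938473, plus strand: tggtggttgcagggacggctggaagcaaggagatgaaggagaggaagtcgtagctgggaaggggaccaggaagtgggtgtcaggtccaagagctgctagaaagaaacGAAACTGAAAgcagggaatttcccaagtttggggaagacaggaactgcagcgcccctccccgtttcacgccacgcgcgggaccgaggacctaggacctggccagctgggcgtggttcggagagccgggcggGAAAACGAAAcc
NMI, chr2:151289669-151289918, minus strand: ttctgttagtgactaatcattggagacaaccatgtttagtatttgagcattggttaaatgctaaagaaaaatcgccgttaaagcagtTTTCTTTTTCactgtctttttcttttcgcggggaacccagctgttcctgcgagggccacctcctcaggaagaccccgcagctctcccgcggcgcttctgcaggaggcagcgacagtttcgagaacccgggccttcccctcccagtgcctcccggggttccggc
ERAP2, chr5:96876250-96876499, plus strand: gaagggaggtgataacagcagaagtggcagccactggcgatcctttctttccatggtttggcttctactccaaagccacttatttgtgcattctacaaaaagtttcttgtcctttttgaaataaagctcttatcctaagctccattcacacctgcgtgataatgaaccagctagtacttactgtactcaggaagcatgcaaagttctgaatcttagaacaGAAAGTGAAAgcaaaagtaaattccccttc
LGALS3BP, chr17:78979924-78980173, minus strand: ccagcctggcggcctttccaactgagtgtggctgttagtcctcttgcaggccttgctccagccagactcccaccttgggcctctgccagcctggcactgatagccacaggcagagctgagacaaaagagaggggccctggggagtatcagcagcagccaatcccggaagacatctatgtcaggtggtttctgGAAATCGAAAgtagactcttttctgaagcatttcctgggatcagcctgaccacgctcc

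The matches begin 52 and 35 bases before the start in IFITM3, 143 and 12 before it in OAS3, and 163, 30 and 58 before it in NMI, ERAP2 and LGALS3BP. Over all members with a promoter in the table, 12 of 147 held the letters in at least one promoter of 300 bases (8.16%), against 488 of 12367 symbols tested (3.95%). The other 7 were CELF2, FEZ1, GPM6A, KIF1A, MVP, PIK3CD and PLXNC1. A match is a run of letters and no evidence of binding. Among other motifs, AGGTCA, the nuclear receptor half-site, was in 8.84% of members and 14.1% of all symbols, CAGGTG in 38.8 and 24.4%, TGATGNAA in 2.72 and 3.15%, and GGGCGG in 80.3 and 73.6%, with both strands searched and overlaps between motifs allowed. Promoters of members had a median GC content of 68.3% against 64.7%. GPC3, COL2A1, EEF1A2, NRP1 and TMEM88 were not matched in the table.

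IFITM3, a membrane protein that hinders the entry of viruses (chr11:319676-329475), stood at 0.125, 1.096 and 0.857 CPM in the HEK293T +Met libraries, 0.631, 0.705 and 1.05 in HEK293T −Met+Hcy, 8.12, 5.704 and 8.37 in R1 +Met and 7.73, 9.09 and 13.1 in R1 −Met+Hcy. Its R1 libraries did not overlap HEK293T, though the level was low in both lines, and IFITM family members share near-identical stretches, so that the assignment of its reads is uncertain. OAS3, a sensor of double-stranded RNA, had 1.88 to 3.22 CPM in HEK293T and 7.77 to 18.4 CPM in R1. NMI, an interferon-induced partner of STAT proteins, had 0.724 to 1.88 CPM in HEK293T and 7.82 to 11.3 CPM in R1, and ERAP2, which trims peptides for presentation on MHC class I, had 0.438 to 2.12 CPM in HEK293T and 5.68 to 10.3 CPM in R1. LGALS3BP, a secreted galectin-binding glycoprotein, had the highest level per length of the group, at 32.1 CPM per kb in R1, and ranged 9.41 to 14.8 CPM in HEK293T and 62.5 to 79.9 CPM in R1. NLRP1, a sensor that assembles an inflammasome, had 4.19, 6.51 and 5.57 CPM (HEK293T +Met), 7.29, 6.29 and 5.33 CPM (HEK293T −Met+Hcy), 54.6, 46.2 and 51.7 CPM (R1 +Met) and 52.2, 47.97 and 16.1 CPM (R1 −Met+Hcy) in replicates 1 to 3. The nuclear body proteins SP100 and SP110, neighbours on chromosome 2, had 0.411 to 2.17 CPM in HEK293T and 7.501 to 13.6 CPM in R1, and 0.375 to 1.75 CPM in HEK293T and 11.6 to 15.4 CPM in R1. UBE2L6, the conjugating enzyme for the ubiquitin-like ISG15, had 0.876 to 2.64 CPM in HEK293T and 12.9 to 15.6 CPM in R1. APOBEC3B, a cytidine deaminase with close paralogs, had 1.897 to 4.35 CPM in HEK293T and 22.03 to 29.5 CPM in R1, and SERPING1, the inhibitor of complement C1, had 0.461 to 1.04 CPM in HEK293T and 3.97 to 7.66 CPM in R1. After removal of the GC and length trend 12 of the 13 still met the rule, as did 13 of the 26 matrix genes. Of 44 measured genes on a list of interferon-stimulated and antigen presentation genes, only IFITM3 and OAS3 were members. OAS3 was the gene of the 13 lost on removal of that trend, and with TMM scaling alone it did not meet the rule either. Of the 20 with 5 CPM or more in R1, 5 had at least 2 times the HEK293T level and 0 stood at 0.5 of it or less.

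Secreted signals and receptors numbered 21. NRP1, neuropilin-1, a co-receptor of semaphorins and VEGF (chr10:33177492-33336262), stood at 7.63, 8.56 and 9.304 CPM in the HEK293T +Met libraries, 19.003, 17.2 and 12.4 in HEK293T −Met+Hcy, 90.2, 64.2 and 91.4 in R1 +Met and 119.6, 125.1 and 97.6 in R1 −Met+Hcy. In both lines each −Met+Hcy library was above each +Met library. TGFB1, the growth factor TGF-beta 1, had 6.13, 6.03 and 4.28 CPM (HEK293T +Met), 4.49, 3.23 and 3.55 CPM (HEK293T −Met+Hcy), 67.3, 53.2 and 67.7 CPM (R1 +Met) and 40.7, 54.03 and 21.2 CPM (R1 −Met+Hcy) in replicates 1 to 3. ADGRA2, an adhesion receptor that supports WNT signalling in brain vessels, had 5.94 to 14.6 CPM in HEK293T and 33.5 to 60.7 CPM in R1, and LRP2 (megalin), an endocytic receptor of kidney tubules, had 3.55 to 7.67 CPM in HEK293T and 24.6 to 56.9 CPM in R1. Receptor tyrosine kinases were ROR2 with 0.205 to 1.71 CPM in HEK293T and 7.14 to 14.1 CPM in R1, RET with 2.33 to 3.94 CPM in HEK293T and 12.9 to 17.3 CPM in R1, FLT1 with 1.63 to 2.501 CPM in HEK293T and 7.44 to 15.2 CPM in R1, and ERBB3 with 0.245 to 1.19 CPM in HEK293T and 3.86 to 10.02 CPM in R1. LTK was another, with 1.71 to 3.86 CPM in HEK293T and 11.2 to 16.01 CPM in R1. Binding proteins of insulin-like growth factors gave IGFBP5, with 0.7896 to 1.61 CPM in HEK293T and 9.398 to 14.9 CPM in R1, and IGFBP7, with 0.0658 to 0.612 CPM in HEK293T and 5.05 to 8.16 CPM in R1. The list of growth factors and secreted signals had 6 members among 147 measured.

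Adhesion and junction genes gave 9 members. LSR, the lipolysis-stimulated receptor found at tricellular junctions, had 9.95, 9.18 and 9.43 CPM (HEK293T +Met), 13.7, 14.2 and 10.5 CPM (HEK293T −Met+Hcy), 83.6, 67.3 and 75.1 CPM (R1 +Met) and 66.8, 72.1 and 19.5 CPM (R1 −Met+Hcy) in replicates 1 to 3. Occludin (OCLN), a tight junction protein, had 3.51 to 7.82 CPM in HEK293T and 20.4 to 38.4 CPM in R1, and DCHS1, a giant cadherin of planar polarity, had 1.75 to 5.54 CPM in HEK293T and 16.6 to 43.6 CPM in R1. ITGA8, the alpha-8 integrin needed for the kidney to form, had 1.23 to 2.76 CPM in HEK293T and 16.04 to 18.4 CPM in R1. Of 82 cadherins and protocadherins measured, 3 were members: PCDHGC3, PCDHGC4 and PCDH1. The gamma protocadherins share their last exons, so that the split between PCDHGC3 and PCDHGC4 is uncertain.

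Genes known from neurons numbered 21, with median ratios of 7.46 and 6.704. KIF1A, the kinesin that carries synaptic vesicle precursors along axons (chr2:240713761-240824293), stood at 11.9, 11.03 and 9.36 CPM in the HEK293T +Met libraries, 13.8, 9.99 and 5.99 in HEK293T −Met+Hcy, 274, 138 and 289 in R1 +Met and 133, 249 and 62.5 in R1 −Met+Hcy. In R1 +Met replicate 2 was the lowest, in R1 −Met+Hcy replicate 3 was the lowest and replicate 1 lay below replicate 2, and all were above HEK293T. MAP1A, a microtubule-associated protein of neurons, had 8.01 to 19.3 CPM in HEK293T and 38.3 to 105 CPM in R1, and ENO2, the neuronal enolase, had 5.26, 7.33 and 5.08 CPM (HEK293T +Met), 10.4, 7.64 and 6.51 CPM (HEK293T −Met+Hcy), 90.5, 72.7 and 82.4 CPM (R1 +Met) and 75.6, 84.7 and 23.97 CPM (R1 −Met+Hcy) in replicates 1 to 3. FEZ1, an adaptor for axonal transport, had 0.939 to 1.84 CPM in HEK293T and 17.6 to 19.3 CPM in R1, BASP1, a growth cone protein, 0.673 to 1.59 CPM in HEK293T and 12.9 to 15.5 CPM in R1, and SYT11, a synaptotagmin, 0.125 to 0.987 CPM in HEK293T and 4.96 to 5.91 CPM in R1. NES (nestin), the intermediate filament of neural progenitors, had 0.592 to 3.23 CPM in HEK293T and 5.21 to 13.2 CPM in R1. Of 41 measured genes on a list of neuronal and synaptic genes, CAMK2B, KIF1A and SYT11 were members. That list and this group share few genes because the group was sorted with the members known.

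Cytoskeleton and small GTPase genes numbered 19. TMSB4X, thymosin beta-4, which holds actin monomers, had 12.5, 11.2 and 13.5 CPM (HEK293T +Met), 14.2, 17.2 and 22.6 CPM (HEK293T −Met+Hcy), 71.04, 133 and 60.1 CPM (R1 +Met) and 132, 92.3 and 119 CPM (R1 −Met+Hcy) in replicates 1 to 3. R1 +Met replicate 2 and −Met+Hcy replicate 1 were the highest of their groups. RASL10B, a small GTPase, was nearly unread in HEK293T, where no library had more than 4 counts, and had 9.62 to 20.8 CPM in R1. FGD5, an exchange factor for CDC42 in endothelium, likewise had at most 4 counts in a HEK293T library and 5.49 to 9.87 CPM in R1. RHPN1, a rhophilin, had 0.764 to 6.44 CPM in HEK293T and 29.2 to 36.6 CPM in R1 and 0 counts in R1 −Met+Hcy replicate 3. TPM2, the beta-tropomyosin, had 4.59 to 16.97 CPM in HEK293T and 43.1 to 52.5 CPM in R1.

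Channels and transporters numbered 14 apart from the SLC family, which the rule left out. ABCA3, the lipid pump of lamellar bodies (chr16:2275881-2340746), had 7.699 to 15.1 CPM in HEK293T and 54.7 to 128 CPM in R1. KCNH2, the hERG potassium channel, had 0.263 to 1.76 CPM in HEK293T and 9.18 to 15.5 CPM in R1, and ATP1B2, a beta subunit of the sodium pump, 0.616 to 2.45 CPM in HEK293T and 15.97 to 24.8 CPM in R1. ORAI2 and ORAI3, pore proteins of store-operated calcium entry, had 3.22 to 5.699 CPM in HEK293T and 17.9 to 24.6 CPM in R1, and 0.329 to 1.19 CPM in HEK293T and 4.74 to 7.19 CPM in R1. Enzymes of metabolism and glycosylation numbered 24. TM7SF2, a sterol reductase of cholesterol synthesis, had 2.63 to 6.55 CPM in HEK293T and 47.5 to 86.6 CPM in R1. NQO1, a quinone reductase that is a known target of the oxidant sensor NRF2, had 6.16 to 8.89 CPM in HEK293T and 38.2 to 57.7 CPM in R1. SELENBP1, which oxidises methanethiol, had 9.61 to 19.2 CPM in HEK293T and 53.2 to 78.8 CPM in R1. APOE, the lipoprotein apolipoprotein E, had 0.438, 0.342 and 0.918 CPM (HEK293T +Met), 0.2104, 0.529 and 0.132 CPM (HEK293T −Met+Hcy), 22.04, 15.8 and 22.1 CPM (R1 +Met) and 17.5, 22.1 and 8.15 CPM (R1 −Met+Hcy) in replicates 1 to 3, a ratio of 35.3-fold in +Met and 68.3-fold in −Met+Hcy. PITPNM1, a phosphatidylinositol transfer protein, had 9.08 to 20.5 CPM in HEK293T and 58.5 to 90.1 CPM in R1, and ENO3, the muscle enolase, 1.47 to 6.802 CPM in HEK293T and 23.9 to 35.6 CPM in R1.

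Transcription, chromatin and RNA-binding genes numbered 14. SMARCA1, the SNF2L ATPase of ISWI chromatin remodellers (chrX:129446501-129523500), stood at 40.5, 47.4 and 33.4 CPM in the HEK293T +Met libraries, 27.9, 25.9 and 22.04 in HEK293T −Met+Hcy, 243, 194 and 279.8 in R1 +Met and 175, 253 and 260.3 in R1 −Met+Hcy. Within HEK293T every −Met+Hcy library was below every +Met library. ZNF467 had 1.94, 1.03 and 1.65 CPM (HEK293T +Met), 5.05, 3.17 and 3.62 CPM (HEK293T −Met+Hcy), 35.8, 39.2 and 39.1 CPM (R1 +Met) and 54.7, 52.7 and 14.6 CPM (R1 −Met+Hcy) in replicates 1 to 3, and it was the only member among 476 measured genes with ZNF symbols. Of the same list, 330 had at least 5 CPM in R1, of which 12 stood at 2 times the HEK293T level or more and 44 at 0.5 of it or less. NFATC4, a calcium-regulated factor, had 6.18 to 9.96 CPM in HEK293T and 30.4 to 38.5 CPM in R1. Of 187 homeobox and paired box genes measured, EMX1, NKX2-1, PAX1 and PAX2 were members, all under 9 CPM in R1: PAX2, a factor of the nephric lineage, had 0.205 to 1.33 CPM in HEK293T and 3.499 to 6.06 CPM in R1. With TMM scaling NKX2-1 still met the rule, and EMX1, PAX1 and PAX2 did not. With the GC and length trend removed as well, NKX2-1 did not meet it either.

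Among the remaining 33 genes were some of the most abundant. EEF1A2, the translation elongation factor form of muscle and neurons (chr20:63488013-63499239), stood at 62.5, 51.1 and 48.1 CPM in the HEK293T +Met libraries, 57.99, 52.6 and 41.4 in HEK293T −Met+Hcy, 542, 380.2 and 548 in R1 +Met and 357, 505 and 139 in R1 −Met+Hcy, which per length was 263 CPM per kb in R1. HSPB1, the small heat shock protein HSP27, had 65.9, 43.8 and 53.3 CPM (HEK293T +Met), 51.8, 56.9 and 54.4 CPM (HEK293T −Met+Hcy), 381, 379 and 361 CPM (R1 +Met) and 283, 329 and 229 CPM (R1 −Met+Hcy) in replicates 1 to 3, or 446 CPM per kb. NUP210, a nucleoporin of muscle and neural differentiation, had 38.2 to 61.9 CPM in HEK293T and 184 to 359.9 CPM in R1. TMEM88, a membrane protein that binds dishevelled in WNT signalling (chr17:7855066-7856099), stood at 0.188, 0.137 and 0 CPM in the HEK293T +Met libraries, 0.1402, 0.176 and 0 in HEK293T −Met+Hcy, 27.1, 30.4 and 21.5 in R1 +Met and 24.3, 17.2 and 10.9 in R1 −Met+Hcy. With at most 3 counts in each HEK293T library its R1 mean was at least 124.5-fold higher, taking 3 counts per library as the floor. The kinase SYK, of immune receptor signalling, had 2.53 to 4.82 CPM in HEK293T and 26.96 to 33.6 CPM in R1, and CLGN, a chaperone of the testis, had 5.92 to 7.59 CPM in HEK293T and 40.2 to 55.8 CPM in R1.

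Members made up 1.16% of all genes tested, so that lists of this size would hold few or none of them. In the pathways that the medium touches they included 0 of 43 measured genes of the methionine cycle, transsulfuration and cobalamin, 0 of 22 PP2A subunits and methylation factors, 0 of 22 genes that consume methyl groups and 0 of 40 of the amino acid response. Of the 34, 20, 14 and 35 of these with at least 5 CPM in R1, 2, 3, 3 and 0 had at least 2 times the HEK293T level and 3, 1, 0 and 12 stood at 0.5 of it or less. Of 78 measured genes on a list of germline and cancer-testis genes other than MAGE, 0 were members. CLGN, the member described above as a chaperone of the testis, was not on that list.

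The members shared some features of position and sequence. All 197 that matched the GENCODE annotation were protein-coding, as were 15834 of the 15857 tested genes with annotation. Their canonical transcripts had a median GC content of 57.1%, against 48.98% for the 15834 protein-coding genes tested, and a median length of 3722 against 3226 bases. Across all genes with at least 2 log2 CPM, the R1 minus HEK293T log2 difference itself was higher at higher GC content (Spearman's rho 0.215 in +Met and 0.246 in −Met+Hcy over 11043 genes, which share libraries). Its part in the members' GC content was not tested, and the count of members without that trend is given above. Chromosome 17 held 22 members (11.2%, against 5.90% of tested protein-coding genes), chromosome 2 held 20 (10.2 against 6.69%) and chromosome 11 held 17 (8.63 against 5.65%). Chromosome 1 held 8 (4.06 against 10.1%), and chromosome 21 none.

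Members less than 500 kb apart formed 24 runs with 52 genes. NES and CRABP2 lay within 37.1 kb on chromosome 1 (156668763 to 156705816), with no other tested protein-coding gene there. NFATC4 and NYNRIN on chromosome 14, IFITM3 and B4GALNT4 on chromosome 11, and UBE2L6 and SERPING1 on the same chromosome were likewise the only 2 tested protein-coding genes of their spans of 53.6, 62.4 and 67.5 kb. Of 3 tested in 322 kb of chromosome 3, NUP210 and FBLN2 were members. Among the runs of 3 members were FGF11, ATP1B2 and TMEM88 (17), the PCDHGC3, PCDHGC4 and PCDH1 stretch (5), and ADSS1, AHNAK2 and CRIP2 (14). These held 23, 25 and 17 tested protein-coding genes.

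The response to the medium was not itself part of the rule. The rule used the same libraries, though, and asked for 0.25 or less in each medium, which limits how far a member could be higher in HEK293T in one medium, so that the members' shares are given beside those of all genes as a description. The response was tested with edgeR's quasi-likelihood test over all 17162 genes, in log2 fold changes of −Met+Hcy against +Met after TMM scaling. In HEK293T this scaling is 0.29 log2 below the ratio of the CPM values printed here. A call needed an adjusted p under 0.05 and an absolute log2 fold change over 1. In HEK293T, 3 of the 199 genes rose and 2 fell (1.51 and 1.01%), against 3.04 and 1.59% of all genes tested. The median of the 199 was −0.11, with 89 positive and 110 negative, against 0.03 over all genes. The 3 −Met+Hcy libraries lay wholly above the 3 +Met libraries for 28 members (14.1%, against 24.7% of all genes) and wholly below for 36 (18.1%, against 20.6%). Without R1 −Met+Hcy replicate 3, which widens the common spread, 14 rose and 11 fell (7.04 and 5.53%, against 6.76 and 3.56% of 17069 genes).

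MLC1, a membrane protein of astrocyte end-feet, stood at 0.501, 0 and 0.0612 CPM in the HEK293T +Met libraries, 1.89, 1.998 and 2.57 in HEK293T −Met+Hcy, 7.48, 8.31 and 6.16 in R1 +Met and 12.8, 9.22 and 4.58 in R1 −Met+Hcy. It rose in HEK293T by 3.16 ± 0.72 log2 (SE, edgeR adjusted p = 0.0233), with all 3 −Met+Hcy libraries above the +Met libraries, and its R1 response was 0.28 ± 0.54 (edgeR adjusted p = 0.861). OLFML1, whose fitted value depends on the few counts of its +Met libraries, rose by 1.98 ± 0.49 (edgeR adjusted p = 0.0316) and ALDH1A1 by 1.50 ± 0.29 (edgeR adjusted p = 0.0108), from the values given above. Even so, the highest HEK293T library of ALDH1A1 was at 4.41 CPM and the lowest of R1 at 36.2. ADAMTS7, a metalloproteinase that cuts matrix proteins, had 2.57, 2.74 and 2.51 CPM (HEK293T +Met), 0.982, 0.999 and 1.05 CPM (HEK293T −Met+Hcy), 16.9, 14.3 and 14.9 CPM (R1 +Met) and 12.5, 12.6 and 2.72 CPM (R1 −Met+Hcy) in replicates 1 to 3. It fell by 1.65 ± 0.44 log2 in HEK293T (edgeR adjusted p = 0.0438). PBLD, whose biochemical role is not settled, fell by 1.30 ± 0.34 (edgeR adjusted p = 0.0408). These calls sat near the threshold. The 2 falls were lost without any one of the 6 HEK293T or the 3 R1 +Met libraries. The number that rose went to 0 without HEK293T +Met replicate 3 or −Met+Hcy replicate 2, to 1 without +Met replicate 1 or −Met+Hcy replicate 3, and to 2 without +Met replicate 2 or −Met+Hcy replicate 1.

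When R1 −Met+Hcy replicate 3 was left out, the genes that rose in HEK293T included 4 of the matrix group: SRGN by 2.28 ± 0.75, COL5A2 by 1.47 ± 0.42, LAMA4 by 1.05 ± 0.28 and OLFML1 (edgeR adjusted p = 0.0409, 0.0215, 0.0162 and 0.00799). The aminopeptidase ENPEP, the receptor ERBB3, the factor ZNF467 and the renin-binding epimerase RENBP rose as well, by 1.29 ± 0.36, 1.17 ± 0.37, 1.04 ± 0.24 and 1.18 ± 0.29. The other calls upward were MLC1, ALDH1A1, ARHGEF28, SYT11, DENND2A and NYNRIN. Those downward were IDUA, the lysosomal iduronidase (-2.31 ± 0.51), RHPN1 (-2.07 ± 0.30), ADAMTS7, PBLD, SLFN5, EBF4, ZC3H6, LAMA5 (-1.10 ± 0.28), TM7SF2 (-1.03 ± 0.20), B4GALNT4 and SHC2. ADAMTS7 and LAMA5 belong to the matrix group, so that 4 of its 26 genes rose and 2 fell. In this fit 6.76 and 3.56% of all genes tested did so, and 7.04 and 5.53% of the 199. The group was sorted by hand, and its difference from these shares was not tested. With all libraries the median HEK293T response of that group was -0.03 log2, with 13 genes positive and 13 negative.

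In R1 none of the 199 passed the test in either direction, with all libraries or without replicate 3, where 0.00583% of all genes rose and 0% fell with all libraries and 0.0176 and 0% without it. At an unadjusted p under 0.05 edgeR had 4 genes higher and 9 lower (2.01 and 4.52%, against 5.68 and 2.11% of all genes), and 4 and 10 without replicate 3 (2.01 and 5.03%, against 4.49 and 2.57% of all genes). DESeq2 called 0 in both directions (against 0.146 and 0.0175% of all genes) with 4 and 10 at that level (2.01 and 5.03%, against 6.37 and 2.63% of all genes). The median of the 199 was −0.24, against −0.02 over all genes, and −0.03 without replicate 3. Without overlap between media, 8 members were higher in −Met+Hcy (4.02%, against 4.89% of all genes) and 21 were lower (10.6%, against 5.72%), and with replicates 1 and 2 alone 26 were higher (13.1%, against 12%) and 27 lower (13.6%, against 8.85%). NRP1 had 0.52 ± 0.19 log2 (edgeR adjusted p = 0.622), and SCD5, a fatty acid desaturase, -0.94 ± 0.33 (edgeR adjusted p = 0.622). The adjusted p does not show that the genes held still: the median standard error of a response in R1 was 0.391 log2 with all libraries and 0.271 without replicate 3.

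**Figure D4:**
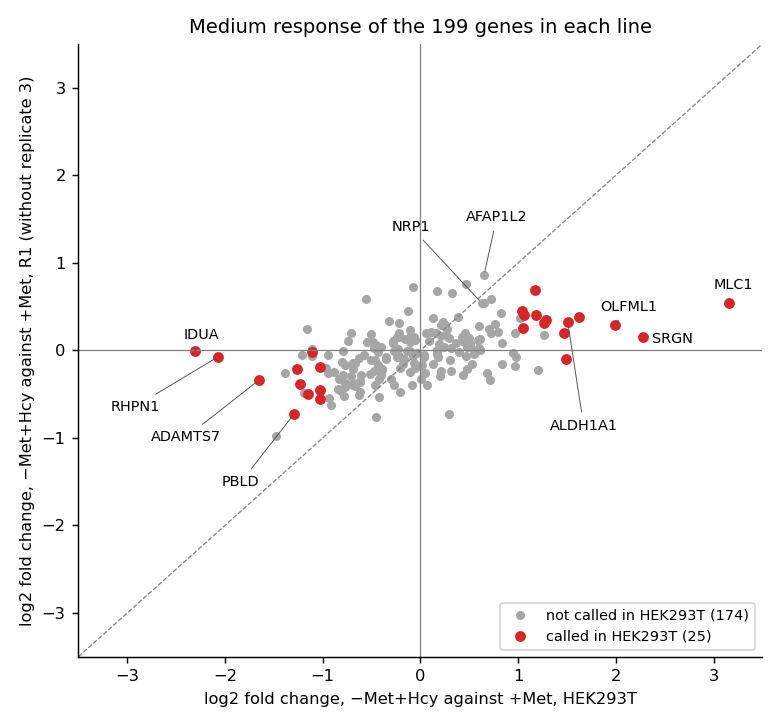
Log2 fold change of −Met+Hcy against +Met for the 199 genes in HEK293T (horizontal) and in R1 without replicate 3 (vertical), with equal responses on the dashed line. The 25 genes called in HEK293T in this fit are red, and MLC1 lies at 3.15 in HEK293T and 0.54 in R1.

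The difference between the responses of the lines was tested as an interaction. No member passed with all libraries (0 and 0 of 199, against 0% of all genes upward and 0.0583% downward), with 3 and 7 at an unadjusted p under 0.05 (1.51 and 3.52%, against 4.62 and 5.05% of all genes). By DESeq2 1 passed, MLC1 with a lower response in R1 (0.503% of members, against 0.717% of all genes, and 0 upward against 0.39%). Without replicate 3 of R1 −Met+Hcy, 2 members had a higher response in R1 than in HEK293T (1.01%, against 0.305% of all genes) and 0 a lower one (against 1.08%). They were RHPN1, at 2.00 ± 0.40 log2 (edgeR adjusted p = 0.0313), and ADAMTS7, at 1.31 ± 0.24 (edgeR adjusted p = 0.0222). For RHPN1 the HEK293T libraries had 6.32, 6.44 and 5.63 CPM in +Met and 2.805, 0.764 and 1.91 in −Met+Hcy, and R1 had 36.5, 36.6 and 29.2 in +Met. Its 2 remaining R1 −Met+Hcy libraries had 34.99 and 32.2. Both calls rest on leaving that library out: with it, the values were 1.40 ± 1.46 and 0.90 ± 0.58 (edgeR adjusted p = 0.786 and 0.635).

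Replicate 3 of R1 −Met+Hcy had a median of 0.366 of the mean CPM of replicates 1 and 2 over the 199 genes. It was below all 5 other R1 libraries for 143 of them and above all for 21. It stood above each HEK293T library for 141 (70.9%, against 28% of all genes tested) and at 4 or more times the HEK293T −Met+Hcy mean for 72 (36.2%, against 3.81%). That library did not enter the rule, but the HEK293T libraries did, and the rule took genes that were low in them. The members' shares are therefore raised in advance and are a description only. For 42 it was below the HEK293T −Met+Hcy mean, and 11 genes had 0 counts in it. The genes lowest relative to replicates 1 and 2 were RHPN1, B4GALNT4, LAMA5, SHC2 and CRIP2, and those highest were TOX3, SP110, FLT1, CLGN and SRGN. LAMA5 had 7.78 CPM against 152 and 192, and SP110 had 40.01 against 14.9 and 13.9.

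The deviation followed the GC content of the transcript. Spearman's rho between the log2 difference from replicates 1 and 2 and GC content was -0.661 over 197 members and -0.744 over 11043 genes, as a description across genes of the same libraries. Among the 66 members with the lowest GC content (up to 53.3%) the median ratio to replicates 1 and 2 was 0.832, and 45 stood at 4 or more times the HEK293T mean. Among the middle 65 the ratio was 0.335 with 17 of them, and among the 66 with the highest GC content (from 60.4%) it was 0.2496 with 10. After removal of the GC and length trend, the median ratio was 1.03 and 127 of 197 stood at 4 or more times HEK293T. That trend was fitted to each library, replicate 3 included, and subtracted, so that a ratio nearer to the other libraries follows largely by construction. For the 45, 17, 10 and 127 no share over all genes is given. The rule took genes low in HEK293T, so these are counts only. The 13 interferon-linked genes had a median ratio of 1.096 before that removal, at a median GC content of 53.7%, and the 21 neuronal genes 0.299, at 59.6%. The groups did not all follow that order: the 21 secreted signals and receptors had 0.579, at 52.1%. In the other R1 libraries transcript length moved with the level: +Met replicate 2 was the lowest of its group for 137 of the 199, and its log2 difference from replicates 1 and 3 had a rho of -0.559 with length over the members.

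**Figure D5:**
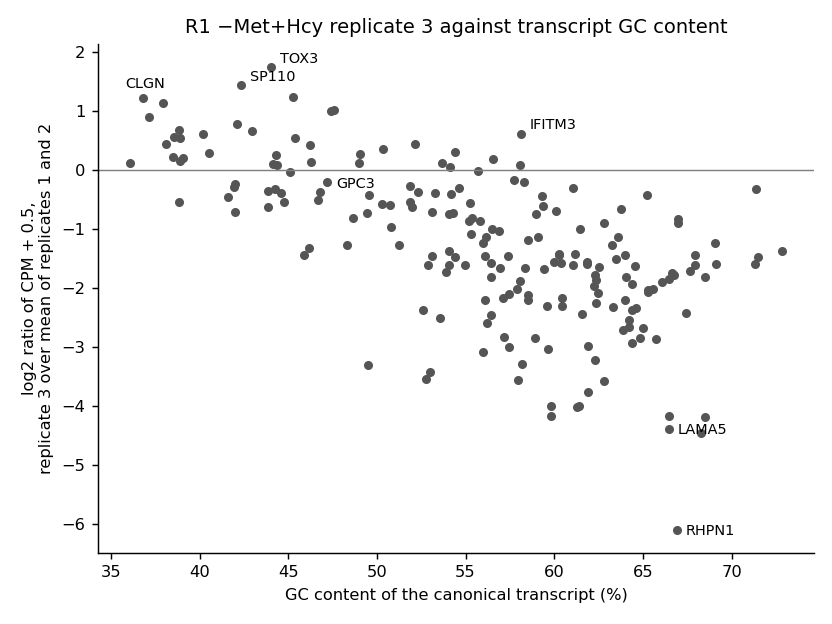
Log2 ratio of CPM plus 0.5 in R1 −Met+Hcy replicate 3 over the mean of replicates 1 and 2 (vertical) against the GC content of the canonical transcript in percent (horizontal), with 1 point for each of the 197 annotated members. RHPN1, with 0 counts, lies lowest, and TOX3 and SP110 highest.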

How the data were processed

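RNA from HEK293T and R1 cells was sequenced in 12 libraries, 3 for each line and medium. The authors quantified the reads with kallisto 0.48.0 on GRCh38 per the labels, and the deposited values are estimated counts per Ensembl gene, given as whole numbers, with no scaling found in them. The 199 genes and the gene lists were chosen with earlier results of these data known, and the groups by role were sorted by hand after the members were seen. CPM used the column sums. The 17162 genes with a summed count of at least 10 were TMM-scaled and fitted in R 4.3.3 with edgeR 4.0.16 (quasi-likelihood test, a mean for each of 4 groups, 8 residual degrees of freedom). Adjustment followed Benjamini and Hochberg across the whole table, and all 199 members passed the filter, also on their HEK293T counts alone. On simulated counts of 17123 genes, the HEK293T comparison recovered 199 of 200 genes changed 4-fold and called 5 unchanged ones. The simulated spread was that of the libraries without R1 −Met+Hcy replicate 3. The changed genes were drawn from those above a minimum mean count, and no GC trend was put in. Recovery at the wider spread of all 12 libraries was not tested. Alternatives were DESeq2 1.42.0, other scalings and filters, a replicate block, each library left out, and, chosen after the data were seen, removal of a loess trend in GC content and length (span 0.3) of the GENCODE 44 canonical transcript. That alternative and every level per length used the 197 members that matched GENCODE. The genes named were the most abundant, the called, those of each list and group and those near the limits of the rule, by level. Further ones were named after their values were seen. Entries that repeat the symbol of a member (11, of which 6 had identical counts) were not used. No batch is given in the sources used here. Results on some items are not reported here.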

Additional observations from a re-analysis of the deposited data

Results flagged for a closer look

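The response to the medium differed between the lines for 3 of the 199 genes, each in one of the following 2 fits and not in the other. Without R1 −Met+Hcy replicate 3, the response of R1 minus that of HEK293T was 2.00 log2 for RHPN1 and 1.31 for ADAMTS7 in the edgeR interaction test. In DESeq2 with all 12 libraries it was -2.92 ± 0.81 (SE) for MLC1 (DESeq2 adjusted p = 0.0265), where RHPN1 (1.40, adjusted p = 0.832) and ADAMTS7 (0.91, adjusted p = 0.609) did not pass. MLC1 stood at 0 counts in 1 of its HEK293T +Met libraries. No member had libraries of the 2 lines moving in opposite directions with no overlap when all libraries were used.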

How the results depend on the processing

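Of the 199 members, 47 remained with a limit of one eighth in place of 0.25, 128 with at least 10 CPM in R1, and 102 genes met the rule with TMM sizes and no GC and length trend, of which 99 were members. A limit of 0.5 gave 886. Each library left out in turn gave 180 to 218. In HEK293T, 3 members higher and 2 lower in −Met+Hcy became 8 and 5 in DESeq2 (4.02 and 2.51%, against 4.36 and 2.37% of all genes), 12 and 9 in the 6 HEK293T libraries alone (6.03 and 4.52%, against 7.87 and 3.80%) and 10 and 6 without the GC and length trend (5.08 and 3.05%, against 4.86 and 2.18%). On adjusted p alone they were 4 and 4 (2.01 and 2.01%, against 4.25 and 2.78% of all genes). Leaving out each library gave 0 to 14 and 0 to 11, the highest of both without R1 −Met+Hcy replicate 3. Without that library, adjusted p alone gave 17 and 19 (8.54 and 9.55%, against 15.2 and 12.5% of all genes). Removal of the trend gave 16 and 9 there (8.12 and 4.57%, against 7.50 and 3.13%). The difference between the lines gave 0 and 0, 1 lower in DESeq2, and with libraries left out 0 to 2 higher and 0 lower. Without replicate 3 it was 2 higher and 0 lower on adjusted p alone (1.01 and 0%, against 0.398 and 1.28% of all genes). Without the trend as well it was 2 higher and 3 lower (1.02 and 1.52%, against 0.874 and 2.16%). In R1 no alternative gave a call. The 72 members at 4 or more times HEK293T in replicate 3 became 124 at 2 or more times and 127 without the trend. For the 124 and the 127 no share over all genes is given, so they are counts only. The cause of these changes was not tested. Of 592 refits of single genes named in the medium comparisons, 0 reversed in direction. Those genes were named for large responses in these same libraries, so that a reversal was unlikely from the start.

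Deviations of same-numbered libraries correlated from -0.72 to 0.60 over 18 pairs and 11641 genes, with 6 pairs over 0.1. Differently numbered libraries were not compared, so these values cannot show whether the replicate numbers pair the libraries. The main fit did not pair them. The replicate block gave 3 members higher and 0 lower in HEK293T (1.51 and 0%, against 2.01 and 1.00% of all genes). It gave 0 in R1 and 0 in the difference. Without R1 −Met+Hcy replicate 3 it gave 12 and 9 in HEK293T (6.03 and 4.52%, against 5.90 and 3.27%). The difference then gave 0 members, against 0.041% of all genes upward and 0.234% downward. What limits the text is depth and spread: the common dispersion was 0.109 with all libraries and 0.0349 without replicate 3, and the median member had 1.94 CPM in HEK293T. Calls near the threshold, R1 with 2 or 3 libraries in −Met+Hcy, and genes with near-identical copies (PCDHGC3, PCDHGC4, RASA4B, SULT1A1, APOBEC3B, IFITM3 and TMSB4X) are the least certain.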
